A study of Mus musculus with 11 samples.

Results

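Proteasome subunit genes were followed across the thymus of mice with and without MYC-driven lymphoma. They were chosen by name: every gene of the array whose platform symbol begins with Psma, Psmc or Psmd and a digit, or is one of Psmb1 to Psmb7. This gave 36 genes of the 19938 that the array names singly, 15 of them in the core particle and 21 matched as regulatory particle. Each gene was read from 1 probe set, the one with the highest mean over the 11 arrays, out of 42 probe sets for the 36 genes. The match also took in genes outside the standard particle. Psma8 encodes the testis version of an alpha subunit, Psmd5, Psmd9 and Psmd10 encode chaperones that help assemble the base, and Psmc3ip, which shares only the letters of its symbol, encodes a meiotic recombination protein. The other 31 are standard subunits.

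The proteasome is the barrel-shaped protease that breaks down proteins tagged with ubiquitin. Its core particle stacks outer rings of alpha subunits, which gate the channel, on inner rings of beta subunits, among them the catalytic Psmb5, Psmb6 and Psmb7. The regulatory particle caps the barrel: in its base a ring of ATPases (Psmc genes) unfolds the substrate beside the scaffold and ubiquitin-binding subunits, and its lid holds Psmd14, the enzyme that cuts ubiquitin off. In developing T cells the proteasome also makes the peptides shown on MHC class I, in part with the immunoproteasome subunits that replace the standard catalytic ones.

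The 11 samples are thymus RNA of FVB mice, and all carry EμSR-tTA, a tetracycline-controlled activator driven by an immunoglobulin enhancer, and the Rosa26LOXPEGFP reporter. Normal thymocytes (n = 3) carried Teto-Cre and Dnmt3b+/+, had no MYC transgene, and were taken at 24 days. Wild-type lymphomas (n = 3) carried Teto-MYC and Dnmt3bF/F without Cre. Dnmt3b-deficient lymphomas (n = 3) carried Teto-MYC, Teto-Cre and Dnmt3b-/-. Both kinds of lymphoma, called tumors from here on, were collected once disease was visible and went into TRIzol unsorted. Pre-tumor thymocytes (n = 2) had the genotype of the Dnmt3b-deficient lymphomas, were taken at 24 days and were sorted for EGFP. The labels leave it unclear if normal thymocytes were sorted too. Each comparison with normal thymocytes therefore spans the MYC transgene together with stage, sorting or Dnmt3b, and for wild-type lymphomas the absence of Cre, and these cannot be told apart. The levels are RMA signals on a log2 scale, so that a difference of 1 is a doubling, and all 36 genes lay above the table's lowest value, 3.32, on all arrays.

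A few facts of the arrays bear on the members. Array medians lay between 4.53 and 4.66. Dnmt3b itself read 5.36 to 5.70 in wild-type and 5.26 to 5.49 in Dnmt3b-deficient tumors, a difference of -0.17 (limma adjusted p = 0.899). No source used here places its probe set inside or outside the deleted part, so the level is no check of the genotype. The mouse Myc probe set read 7.77 to 8.13 in normal thymocytes but 4.83 to 5.62 in wild-type tumors, and whether it reads the transgene is not given either. The summed level of 12 markers of thymocytes and the T lineage was 14.35 to 14.41 on the log2 scale in normal thymocytes, 12.81 to 13.00 in wild-type tumors, 12.72 to 12.94 in Dnmt3b-deficient tumors and 13.16 to 13.61 in pre-tumor thymocytes. In the comparisons with normal thymocytes 10, 9 and 6 of these 12 fell and 0 rose, beside 10.3%, 10.5% and 9.88% of all probe sets that fell. None of the 12 was at the floor in any group. The summed markers of macrophages spread most within a group, from 8.11 to 11.15 over the wild-type tumors. In bulk RNA, fewer cells of a type and less RNA per cell cannot be told apart. The part of these shifts in the differences below was not tested.

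Upstream sequence was at hand for 29 of the 36 genes, from RefSeq on GRCm38.p6. The 250 bases before the start are shown for 4 of them, a pair that rose in all 3 comparisons with normal thymocytes (Psma4 and Psmc6) and a pair that was lower there (Psmb6 and Psmd9). Capitals mark matches to the E box CACGTG, the core of the sites MYC binds, and to the antioxidant response element TGACNNNGC, the kind of site bound by Nfe2l1 and Nfe2l2.
Psma4, chr9:54950609-54950858, plus strand: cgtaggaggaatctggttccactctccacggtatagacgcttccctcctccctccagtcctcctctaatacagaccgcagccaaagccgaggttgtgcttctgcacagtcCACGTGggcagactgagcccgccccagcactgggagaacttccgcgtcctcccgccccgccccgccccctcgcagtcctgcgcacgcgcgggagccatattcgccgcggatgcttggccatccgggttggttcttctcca
Psmc6, chr14:45329574-45329823, plus strand: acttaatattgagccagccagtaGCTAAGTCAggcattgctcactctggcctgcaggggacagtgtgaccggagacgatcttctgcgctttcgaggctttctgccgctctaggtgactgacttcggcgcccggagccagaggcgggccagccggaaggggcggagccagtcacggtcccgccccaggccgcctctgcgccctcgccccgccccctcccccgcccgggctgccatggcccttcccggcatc
Psmb6, chr11:70525107-70525356, plus strand: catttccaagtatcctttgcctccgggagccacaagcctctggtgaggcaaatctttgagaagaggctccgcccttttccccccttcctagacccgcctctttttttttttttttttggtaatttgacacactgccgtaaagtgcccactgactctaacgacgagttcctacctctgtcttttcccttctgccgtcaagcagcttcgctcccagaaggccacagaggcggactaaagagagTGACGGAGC
Psmd9, chr5:123227940-123228189, plus strand: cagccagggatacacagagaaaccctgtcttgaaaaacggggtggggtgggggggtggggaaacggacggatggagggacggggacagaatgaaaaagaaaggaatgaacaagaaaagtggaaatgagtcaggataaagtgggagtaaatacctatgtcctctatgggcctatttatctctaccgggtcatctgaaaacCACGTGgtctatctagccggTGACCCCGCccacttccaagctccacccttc
The E box of Psma4 begins 140 bases before the start and that of Psmd9 51 bases before it. Psmd9 also holds an antioxidant element 31 bases before its start, Psmb6 one 9 bases before, and Psmc6 one 227 bases before on the other strand.

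Searched on both strands over windows of 250 bases, E boxes were in 2 of the 29 members (6.9%) and in 6.05% of 27025 promoters. The antioxidant element was in 5 of 29 (17.2%), namely Psmb5, Psmb6, Psmc6, Psmd12 and Psmd9, against 10.1% of all promoters. CCAAT was in 12 of 29 (41.4%) against 34.5%. A perfect NRF1 site was in 1 of 29 (Psma2) against 0.781%, and the ZNF143 site in 2 (Psmd10 and Psmd11) against 1.81%. Members that rose in wild-type tumors and those that did not held these motifs at 1 of 9 and 1 of 20 for the E box, and at 2 of 9 and 3 of 20 for the antioxidant element. The members' windows were richer in CpG, with a median of 15 against 6 in all promoters, and their median GC content was 54.8% against 52%. A match is a run of letters in this window and does not show binding.

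Against normal thymocytes, 8 subunit genes rose in wild-type tumors, in Dnmt3b-deficient tumors and before tumors alike: Psma1, Psma3 and Psma4 of the alpha ring, the ATPase gene Psmc6, the scaffold gene Psmd1, and Psmd6, Psmd12 and Psmd14 of the lid. These comparisons share the 3 normal samples. None of the 36 fell in all 3, and 15 passed in none. Counting each comparison on its own, 10 of 36 rose and 1 fell in wild-type tumors, where 9.58% of all 28939 probe sets rose and 10.3% fell. In Dnmt3b-deficient tumors 13 rose and 3 fell, beside 9.7% and 10.5% of all probe sets. In pre-tumor thymocytes 8 rose and 6 fell, beside 9.69% and 9.88%. Bright probe sets pass more often, and 35 of the 36 members lie among the 14470 with the higher mean signal. Of those 14470, the shares up and down were 18.5% and 17.7% in wild-type tumors, 18.7% and 18.4% in Dnmt3b-deficient tumors, and 18.2% and 16.3% in pre-tumor thymocytes. The counts that fell are thus below or near that background, and the counts that rose are above it in the tumors. That background is not matched for level, as the members' mean levels had a median percentile of 92.7 among tested probe sets.

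**Figure D1:**
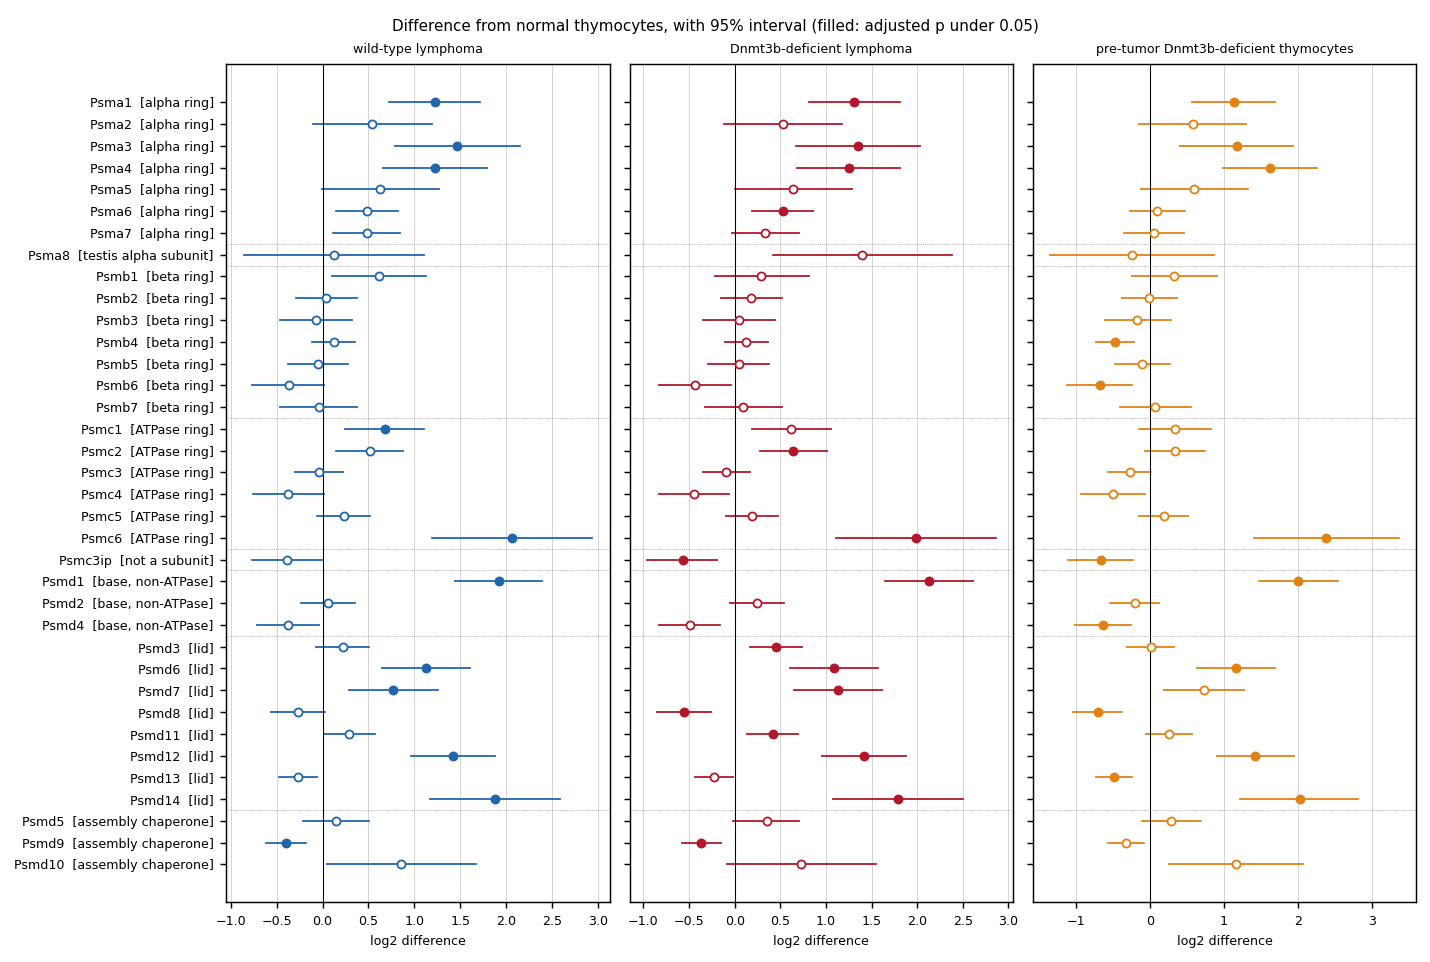
Log2 difference from normal thymocytes for the 36 genes, ordered by role, in wild-type tumors, Dnmt3b-deficient tumors and pre-tumor thymocytes; bars are 95% intervals and filled points passed limma at an adjusted p under 0.05. Psmc6, Psmd1 and Psmd14 stand farthest right in all 3 panels, at 1.79 to 2.38, while the beta ring spans -0.67 to 0.62.

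In the core particle the alpha and beta rings gave different pictures. Of the 7 alpha ring genes, 3 rose in wild-type tumors, 4 in Dnmt3b-deficient tumors and 3 in pre-tumor thymocytes, with median differences of 0.63, 0.64 and 0.60. Of the 7 beta ring genes none rose in any of them by limma, with medians of -0.04, 0.09 and -0.10, and 1, 1 and 2 of the 7 had an unadjusted p under 0.05. Among the 14470 brighter probe sets 18.5%, 18.7% and 18.2% rose, so that 0 of 7 lies near that background. The median over all probe sets was 0.00, 0.00 and -0.02. In either lymphoma all 3 samples lay above all normal samples for every alpha ring gene, which holds for 15.9% of probe sets in wild-type and 15.2% in Dnmt3b-deficient tumors. The same held for 2 and 1 of the 7 beta ring genes. Pre-tumor thymocytes lay above all normal samples for 3 of the 7 alpha ring genes and 0 of the 7 beta ring genes, beside 17.4% of probe sets.

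**Figure D2:**
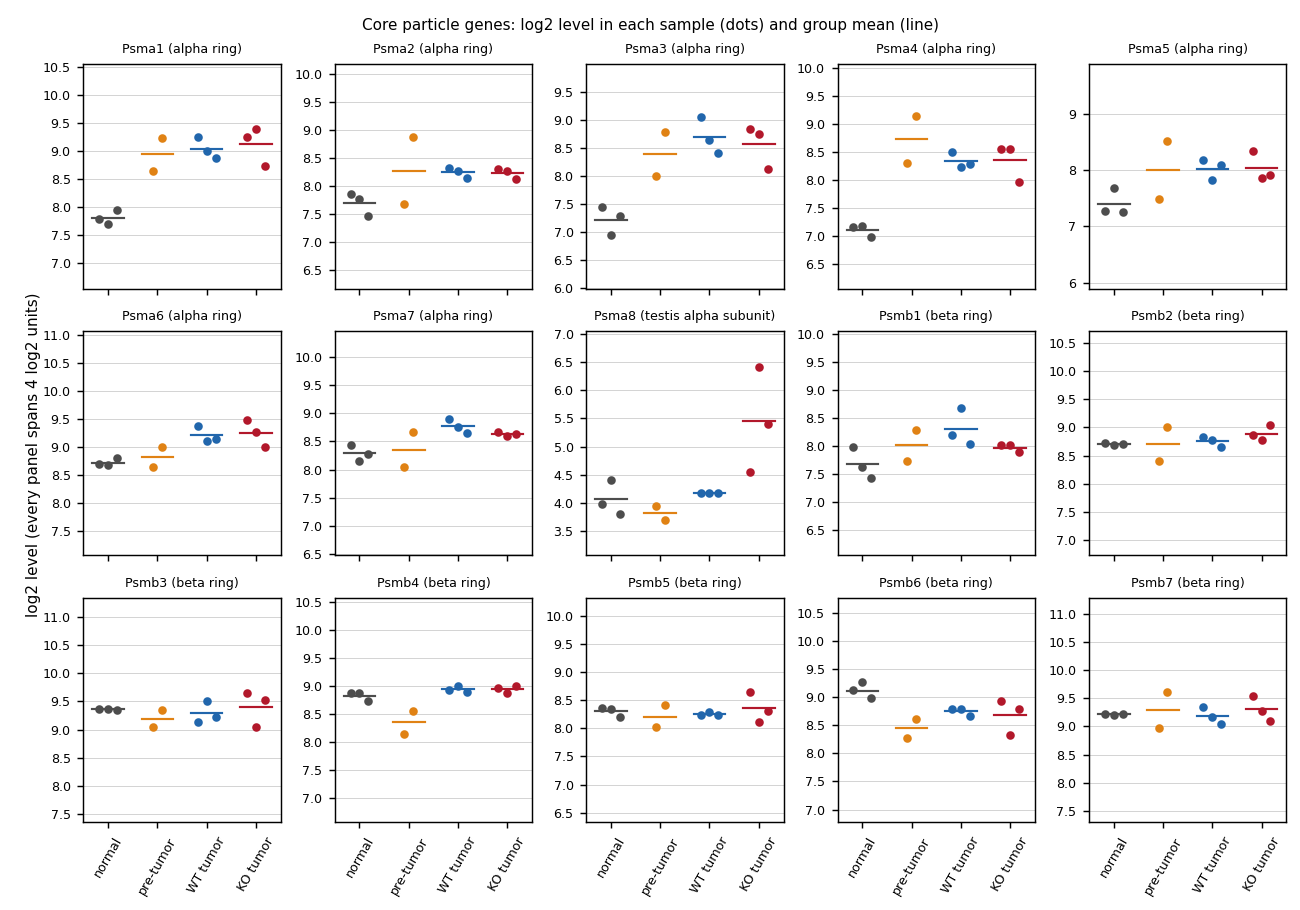
Log2 level of the 15 core particle genes in each of the 11 samples (dots) with group means (lines); normal, pre-tumor, WT tumor and KO tumor are the normal thymocytes, pre-tumor thymocytes, wild-type and Dnmt3b-deficient tumors, and every panel spans 4 log2 units. Psma1, Psma3 and Psma4 are lowest in the normal samples. Psma8 is highest in the 3 Dnmt3b-deficient tumors, the lowest of them at 4.55 beside 4.41 in a normal sample, and passed in no comparison.

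Psma4 read 7.17, 7.18 and 6.98 in the normal samples, 8.50, 8.24 and 8.28 in wild-type tumors, 8.56, 8.56 and 7.96 in Dnmt3b-deficient tumors, and 8.31 and 9.15 in pre-tumor thymocytes. Every normal sample lay below every other sample. The differences were 1.23 (SE 0.24), 1.25 (SE 0.24) and 1.62 (SE 0.27), or 2.34-fold, 2.37-fold and 3.07-fold, with limma adjusted p of 0.0116, 0.00997 and 0.00746. Psma4 belongs to the N-terminal gate-forming alpha subunits, and it and Psmd9, which fell in the tumors, are the 2 members with an E box. Its call in pre-tumor thymocytes was kept when either pre-tumor sample was left out.

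Psma1 had normal levels of 7.79, 7.70 and 7.95, against 9.24, 8.99 and 8.87 in wild-type tumors, 9.25, 9.39 and 8.73 in Dnmt3b-deficient tumors, and 8.65 and 9.23 in pre-tumor thymocytes. Again the normal samples were the lowest. The differences were 1.22, 1.31 (both SE 0.21) and 1.13 (SE 0.24), with limma adjusted p of 0.00708, 0.00484 and 0.0163. The pre-tumor call was lost without pre-tumor replicate 2 (adjusted p = 0.131) and without normal replicate 2 (0.0513).

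Psma3 stood at 7.45, 6.94 and 7.28 in the normal samples, 9.04, 8.63 and 8.41 in wild-type tumors, 8.84, 8.74 and 8.13 in Dnmt3b-deficient tumors, and 8.0 and 8.79 in pre-tumor thymocytes. The normal samples were below all others. The differences of 1.47, 1.35 (both SE 0.29) and 1.17 (SE 0.32) had limma adjusted p of 0.0116, 0.0153 and 0.0424. In Dnmt3b-deficient tumors the call was lost without normal replicate 2 (0.0571) or without the first or the second tumor (0.0511 and 0.0566), and before tumors it was lost in 11 of 22 alternatives. The probe set used is placed by its neighbours on chromosome 6 although the gene lies on chromosome 12. The gene's other 2 probe sets, one of them placed on chromosome 12, gave 1.40 and 1.38 in wild-type tumors, so the value did not depend on that choice.

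The other alpha ring genes moved less. Psma6 was 8.69, 8.68 and 8.80 in normal thymocytes and 9.49, 9.26 and 9.0 in Dnmt3b-deficient tumors, a rise of 0.53 (SE 0.14, limma adjusted p = 0.0391) without overlap. That call was lost in 11 of 22 alternatives, and in wild-type tumors the difference was 0.48 (adjusted p = 0.0539). Psma2, Psma5 and Psma7 did not pass in any comparison: their differences in the tumors were 0.33 to 0.64 and before tumors 0.06 to 0.60. A second Psma5 probe set gave larger differences of 0.89, 0.97 and 0.91 and did not pass either (limma adjusted p = 0.0899, 0.0695 and 0.117). Its neighbours place that probe set on chromosome 10, although the gene lies on chromosome 3. Pre-tumor Psma2 levels of 7.67 and 8.88 lay on either side of both tumor ranges.

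In the beta ring the calls lay in pre-tumor thymocytes and were falls. Psmb6, the caspase-like catalytic subunit, read 9.13, 9.27 and 8.98 in normal thymocytes and 8.28 and 8.62 in pre-tumor thymocytes, with 8.79, 8.79 and 8.67 in wild-type tumors, then 8.94, 8.33 and 8.79 in Dnmt3b-deficient ones. All 8 other samples lay below the normal ones. The difference was -0.67 (SE 0.19) in pre-tumor thymocytes (limma adjusted p = 0.0431), lost in 14 of 22 alternatives, and -0.37 and -0.44 in the tumors (0.18 and 0.123). Psmb4, a structural beta subunit, read 8.87, 8.87 and 8.72 in normal and 8.14 and 8.55 in pre-tumor thymocytes. Its pre-tumor samples were the lowest of the 11, at -0.47 (SE 0.11, limma adjusted p = 0.0247), a call lost in 7 of 22 alternatives, while the tumors stood at 8.87 to 9.0, at the top of the normal range or above it.

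The catalytic genes Psmb5 (chymotrypsin-like) and Psmb7 (trypsin-like) differed from normal by -0.10 to 0.05 and by -0.04 to 0.09. The 95% interval of Psmb5 ran from -0.38 to 0.28 in wild-type and from -0.29 to 0.38 in Dnmt3b-deficient tumors. For Psmb7 the bounds were -0.46 and 0.38, and -0.33 and 0.52. A rise the size of that of Psma4 lies outside these intervals. Psmb2 and Psmb3, structural subunits, differed by -0.17 to 0.18. Psmb1 was 0.62 higher in wild-type tumors without overlap (limma adjusted p = 0.0974).

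Psma8 behaved unlike the other core genes. It read 3.98, 4.41 and 3.79 in normal thymocytes, 4.18 on each of the 3 wild-type lymphoma arrays, 3.94 and 3.70 in pre-tumor thymocytes, and 4.55, 6.42 and 5.41 in Dnmt3b-deficient tumors. The Dnmt3b-deficient tumors were the highest 3 of the 11 samples, although the lowest of them lay only just above the highest normal sample. Against normal thymocytes the difference was 1.40 (SE 0.42), short of the threshold in limma (adjusted p = 0.0554) and past it in 4 of 21 alternatives. One of these left out Dnmt3b-deficient replicate 1, the lowest of its group (0.0101), and the others gave 0.0254 to 0.0492. The SE pools all groups, although the SD was 0.94 in Dnmt3b-deficient and 0.00 in wild-type tumors. Psma8 is the one member outside the 14470 brighter probe sets.

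The genes matched as regulatory particle, 21 of the 36, held both the largest rises and most of the falls. Among these 21 genes 7 rose and 1 fell in wild-type tumors, and 9 rose and 3 fell in Dnmt3b-deficient tumors. In pre-tumor thymocytes 5 rose and 4 fell, and the median differences were 0.23, 0.42 and 0.26. Of the 14470 brighter probe sets 18.5%, 18.7% and 18.2% rose, and 17.7%, 18.4% and 16.3% fell. The falls among the 21 genes are thus below or near that background. Some of these falls were in genes that are not part of the finished particle. Among the standard subunits of the regulatory particle, 0, 1 and 2 fell in the lid, 0, 0 and 1 among the non-ATPase base subunits, and 0 in the ATPase ring each time. Over the 31 standard subunits of both particles, which add the core genes, 0, 1 and 5 fell. Without overlap, 11, 12 and 10 of the 21 lay above the normal samples and 6, 6 and 8 below them. Over all probe sets the shares above were 15.9%, 15.2% and 17.4%, and the shares below 18.9%, 17.2% and 27.3%. Pre-tumor thymocytes number only 2, and a group of 2 fails to overlap more easily.

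**Figure D3:**
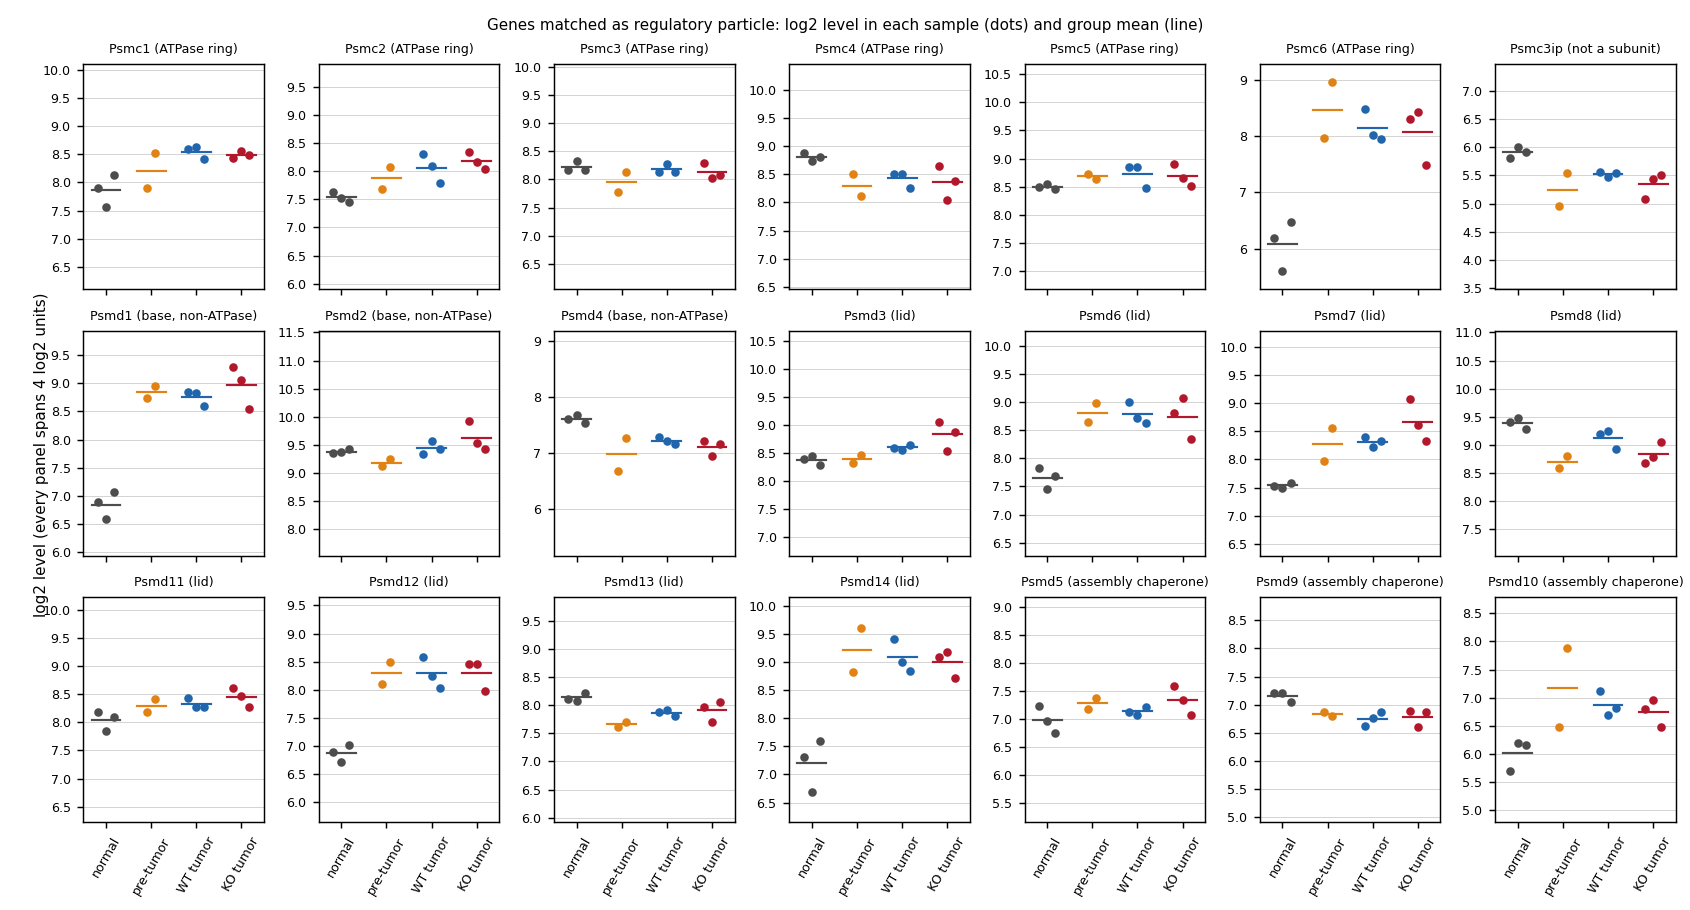
Log2 level of the 21 genes matched as regulatory particle in each sample (dots) with group means (lines), groups named as in the plot of the core particle; every panel spans 4 log2 units. In Psmc6, Psmd1, Psmd12 and Psmd14 the 3 normal samples lie far below the other 8. In Psmc3, Psmd2 and Psmd5 the group means lie close together, though not all groups overlap.

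In the ATPase ring, Psmc6 moved most. It read 6.19, 5.60 and 6.47 in the normal samples, 8.49, 8.02 and 7.95 in wild-type tumors, 8.30, 8.43 and 7.49 in Dnmt3b-deficient tumors, and 7.97 and 8.96 in pre-tumor thymocytes. The highest normal sample was a full log2 unit below the lowest of the others. Its differences were 2.07, 1.99 (both SE 0.37) and 2.38 (SE 0.42), or 4.20-fold, 3.97-fold and 5.20-fold, with limma adjusted p of 0.00821, 0.00874 and 0.00878. In pre-tumor thymocytes the call was lost without pre-tumor replicate 2 (0.0747).

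Of the other 5 ATPases 1 rose in each kind of tumor and 0 before tumors, beside 18.5%, 18.7% and 18.2% of the 14470 brighter probe sets. Psmc1 was 7.90, 7.57 and 8.14 in normal thymocytes against 8.59, 8.64 and 8.41 in wild-type tumors. This rise of 0.68 (SE 0.19, limma adjusted p = 0.0405) was lost in 13 of 22 alternatives. A second Psmc1 probe set differed by 0.71 in wild-type tumors and did not pass (limma adjusted p = 0.113). Its neighbours place that probe set on chromosome 16, although the gene lies on chromosome 12. Psmc2 rose by 0.64 (SE 0.16) in Dnmt3b-deficient tumors (limma adjusted p = 0.0253), lost without any one normal sample (0.0527 to 0.0757). Psmc3 and Psmc5 differed by -0.27 to 0.23 and passed in none. Psmc4 was lower in all 3 groups without overlap, by -0.38, -0.45 and -0.50, and did not pass (0.17, 0.111 and 0.107). Within 1 ring, then, 95% intervals reached from 1.19 to 2.94 for Psmc6 and from -0.76 to 0.01 for Psmc4 in wild-type tumors.

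Among the non-ATPase subunits of the base, Psmd1, a scaffold subunit, read 6.88, 6.58 and 7.06 in the normal samples, 8.84, 8.83 and 8.59 in wild-type tumors, 9.29, 9.06 and 8.55 in Dnmt3b-deficient tumors, and 8.74 and 8.95 in pre-tumor thymocytes. The gap between the normal samples and the rest was wider than the spread in any group. Its differences were 1.92, 2.13 (both SE 0.20) and 2.00 (SE 0.23), with limma adjusted p of 0.00116, 0.000698 and 0.00231, the lowest among the members in each comparison. Psmd1 was the one member that passed in pre-tumor thymocytes under every alternative. Its partner scaffold Psmd2 read 9.35, 9.37 and 9.42 in normal thymocytes against 9.33, 9.56 and 9.43 in wild-type tumors, which overlap. Psmd2 differed by 0.06, 0.25 and -0.20 and passed in none. Without overlap, it lay above normal in Dnmt3b-deficient tumors and below normal before tumors. Psmd4, a ubiquitin receptor, fell by 0.63 on the log2 scale in pre-tumor thymocytes (SE 0.16, limma adjusted p = 0.0327), from 7.60, 7.67 and 7.54 to 6.68 and 7.27. It lay below normal without overlap in both tumors too, by -0.38 and -0.49 (adjusted p = 0.115 and 0.0501), and the pre-tumor call was lost in 11 of 22 alternatives.

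Of the 8 lid genes, 4 rose in wild-type tumors, 6 in Dnmt3b-deficient tumors and 3 in pre-tumor thymocytes, and 0, 1 and 2 fell. Of the 14470 brighter probe sets 18.5%, 18.7% and 18.2% rose and 17.7%, 18.4% and 16.3% fell. Psmd14, the deubiquitinating enzyme of the lid, read 7.31, 6.69 and 7.60 in the normal samples, 9.41, 8.99 and 8.83 in wild-type tumors, 9.08, 9.17 and 8.72 in Dnmt3b-deficient tumors, and 8.82 and 9.61 in pre-tumor thymocytes. All 8 samples with the MYC transgene lay above all normal samples. The differences were 1.88, 1.79 (both SE 0.30) and 2.02 (SE 0.34), with limma adjusted p of 0.00525, 0.00572 and 0.00766, the last lost without pre-tumor replicate 2 (0.0652).

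Psmd12, a structural lid subunit, gave nearly the same difference in each comparison: 1.42 (SE 0.20, 0.20 and 0.22), with limma adjusted p of 0.00302, 0.00252 and 0.00572. Its levels were 6.90, 6.71 and 7.01 in the normal samples, 8.58, 8.24 and 8.03 in wild-type tumors, 8.45, 8.45 and 7.97 in Dnmt3b-deficient tumors, and 8.10 and 8.49 in pre-tumor thymocytes. No normal sample overlapped with another group. Psmd6 rose by 1.13, 1.09 and 1.16 (limma adjusted p = 0.00821, 0.0087 and 0.0129), from 7.46 to 7.82 in normal thymocytes to 8.35 to 9.08 elsewhere. Without pre-tumor replicate 2 the pre-tumor calls of Psmd12 and Psmd6 were lost (0.0538 and 0.111).

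Psmd7, the inactive partner of Psmd14 in the lid, read 7.53, 7.50 and 7.59 in normal samples, 8.40, 8.22 and 8.32 in wild-type tumors, then 9.08, 8.61 and 8.32 in Dnmt3b-deficient ones. It rose by 0.77 and 1.13 (both SE 0.21, limma adjusted p = 0.037 and 0.00781), and before tumors the difference was 0.73 (0.0669). The rise in wild-type tumors was lost without any 1 of the 6 samples compared (0.0755 to 0.114), while the one in Dnmt3b-deficient tumors passed every alternative. Psmd3 and Psmd11, scaffold-type lid subunits, rose in Dnmt3b-deficient tumors by 0.45 and 0.42 (adjusted p = 0.0379 and 0.0452), calls lost in 14 and 13 of 22 alternatives.

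The lid genes Psmd8 and Psmd13 passed only as falls, Psmd8 in Dnmt3b-deficient tumors and before tumors and Psmd13 before tumors. Psmd8 read 9.41, 9.48 and 9.28 in normal thymocytes, 8.68, 8.78 and 9.05 in Dnmt3b-deficient tumors, 8.58 and 8.80 in pre-tumor thymocytes and 9.20, 9.25 and 8.92 in wild-type tumors. No sample reached the lowest normal level. The falls of -0.55 (SE 0.13) and -0.70 (SE 0.14) passed limma (adjusted p = 0.0194 and 0.0136), lost without single normal or Dnmt3b-deficient samples (0.0588 to 0.0694) and without either pre-tumor sample (0.0685 and 0.0529), and the -0.27 in wild-type tumors did not pass (0.205). Psmd13 was -0.48 lower in pre-tumor thymocytes (SE 0.10, adjusted p = 0.0163), lost without either pre-tumor sample (0.0737 and 0.0805), and -0.27 and -0.23 lower in the tumors without passing.

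Of the 4 genes matched as regulatory particle that are not part of the finished particle, 1, 2 and 1 fell and 0 rose. Of the 14470 brighter probe sets 17.7%, 18.4% and 16.3% fell and 18.5%, 18.7% and 18.2% rose. With 4 genes, these counts cannot be set apart from that background. The chaperone gene Psmd9 fell by 0.40 on the log2 scale in wild-type tumors and by 0.37 in Dnmt3b-deficient ones (both SE 0.09, limma adjusted p = 0.0221 and 0.0307), from 7.20, 7.21 and 7.04 to 6.62, 6.76 and 6.87, and to 6.88, 6.61 and 6.87. Neither group overlapped with normal, and the calls were lost in 6 and 7 of 22 alternatives. Psmd10 was 0.86, 0.73 and 1.16 higher and Psmd5 0.15, 0.35 and 0.29 higher, and neither passed. Psmc3ip fell by 0.57 and by 0.66 on the log2 scale in Dnmt3b-deficient tumors and pre-tumor thymocytes (adjusted p = 0.047 and 0.0429), calls lost in 13 and 14 of 22 alternatives.

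Single arrays set part of the spread. Of the 10 members that rose in wild-type tumors, normal replicate 2 was the lowest of the 3 normal samples in 9, wild-type replicate 3 the lowest of its group in 8, and Dnmt3b-deficient replicate 3 in 9. Over the 14470 brighter probe sets the same arrays were lowest in 35.3%, 33.2% and 34.2%, but those were not chosen for a rise. On these arrays the 10 members had median deviations from the group mean of -0.23, -0.16 and -0.39. All probe sets that rose in wild-type tumors deviated in the same direction there, by medians of -0.11, -0.05 and -0.15. Among the pre-tumor samples, replicate 1 lay below replicate 2 in 32 of 36 members, beside 53.6% of the 14470 brighter probe sets. Of the 11 calls in wild-type tumors 8 held on leaving out each sample in turn, of the 16 in Dnmt3b-deficient tumors 8, and of the 14 in pre-tumor thymocytes 2, Psma4 and Psmd1. Leaving out one sample of a group of 2 leaves 1, whose spread is then taken from the other groups.

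Between the tumor genotypes, none of the 36 genes passed. This comparison spans the loss of Dnmt3b together with Teto-Cre, which the wild-type tumors lack, and these cannot be told apart. limma called 0 members, beside 0.00691% of all probe sets, and 1 of 36 had an unadjusted p under 0.05, beside 6.3% of all. That one was Psma8, 1.28 higher in Dnmt3b-deficient tumors (SE 0.42, 95% interval 0.30 to 2.26, adjusted p = 0.71). Its 3 Dnmt3b-deficient values lay above the single value shared by the wild-type tumors, and Psmb1 lay below without overlap, at 8.01, 8.01 and 7.89 against 8.19, 8.67 and 8.03. These are 2 of 36 members without overlap, beside 7.98% of all probe sets.

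**Figure D4:**
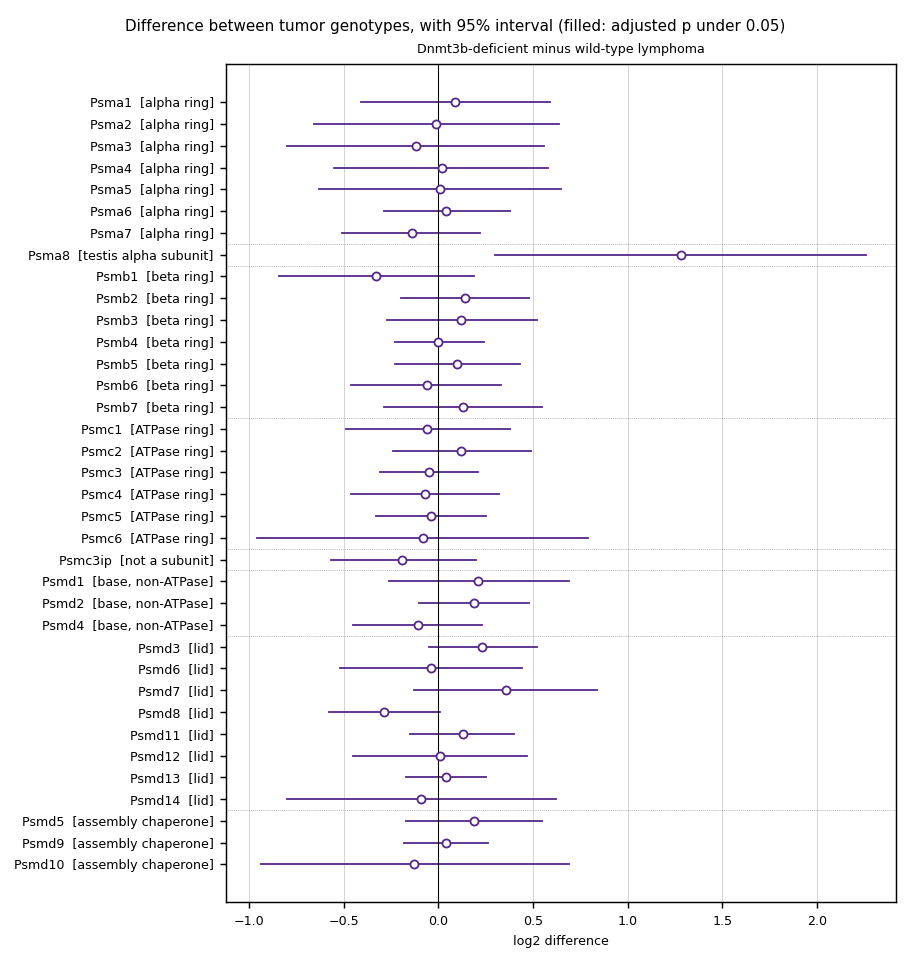
Log2 difference between Dnmt3b-deficient and wild-type tumors for the 36 genes by role, with 95% intervals; open points did not pass limma. The 31 standard subunits lie between -0.33 and 0.36, and Psma8 lies apart at 1.28.

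The 31 standard subunits differed between tumor genotypes by -0.33 to 0.36, 29 of them by less than 0.3 in size. Their median difference was 0.01, and 0.00 over all probe sets. The intervals say how far a difference could go: the lowest bound was -0.96, for Psmc6, and the highest 0.84, for Psmd7. Psmd7 had the largest positive difference, 0.36 (SE 0.21, adjusted p = 0.88), with the Dnmt3b-deficient tumors at 9.08, 8.61 and 8.32 and the wild-type ones at 8.40, 8.22 and 8.32. Psmd8 was -0.29 lower (SE 0.13, 0.795) and Psmd3 0.23 higher (SE 0.12, 0.847), both with overlap. A p that misses the threshold does not show equal levels.

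Tumors were also compared with pre-tumor thymocytes. Both kinds of tumor differ from the pre-tumor thymocytes in stage and in sorting for EGFP. Wild-type tumors differ from the pre-tumor thymocytes in Dnmt3b and Cre as well, and these parts cannot be told apart. limma called 0 of 36 in either tumor genotype, beside 0.0691% of probe sets for Dnmt3b-deficient and 0.107% for wild-type tumors. An unadjusted p under 0.05 was reached by 6 and 4 members, beside 9.43% and 7.77% of probe sets. Without overlap 4 and 8 members lay above the pre-tumor samples and none below, beside 13.1% and 11.3% of probe sets above. The share of all probe sets below was not counted, so the direction cannot be judged. With only 2 pre-tumor samples, groups also fail to overlap more easily. Psmb4 stood out in both, 0.59 higher in each (SE 0.11, adjusted p = 0.152 and 0.18), and passed only without pre-tumor replicate 2 (0.0248 and 0.0233). In Dnmt3b-deficient tumors, Psma8 was 1.64 higher (SE 0.47, 0.32), Psmd2 0.45 (SE 0.14, 0.374) and Psmd3 0.44 (SE 0.14, 0.372), with no overlap. In wild-type tumors, Psmd8 was 0.44 higher (SE 0.14, 0.46) and Psma7 0.42 higher (SE 0.17, 0.618). Psma4, Psmc6 and Psmd10 were lower in tumors than before them, by -0.31 to -0.39 for the first pair in wild-type tumors and by -0.43 for Psmd10 in Dnmt3b-deficient ones, all with overlap.

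Around the particle, a list of 20 measured proteasome genes that the symbol rule leaves out was tested the same way. In wild-type tumors 8 rose and 3 fell, in Dnmt3b-deficient tumors 8 and 1, and before tumors 7 and 3, with median differences of 0.03, 0.14 and 0.10. The shares of all probe sets that rose and fell were 9.58% and 10.3%, 9.7% and 10.5%, and 9.69% and 9.88%, and among the brighter ones 16.3% to 18.7%, so that the falls on this list were near or below the background. The largest rises were of proteins that bind the particle reversibly. Uchl5, a deubiquitinating enzyme of the regulatory particle, rose by 2.25, 2.58 and 2.74 (limma adjusted p = 0.00606, 0.00317 and 0.00568), from 5.94, 4.98 and 5.90 in normal thymocytes to 7.59 or more in every other sample. Usp14, the other such enzyme, rose by 2.15, 2.27 and 2.17 (0.002, 0.00137 and 0.00399), from 5.41, 5.45 and 5.81 to 7.39 or more. Ecpas, an adaptor and scaffold of the proteasome, rose by 2.18, 2.50 and 2.33 (0.00283, 0.00145 and 0.00456). The activator Psme4 rose by 1.84, 1.62 and 1.90 (0.0118, 0.0182 and 0.0171), and the nuclear activator Psme3 by 0.41, 0.59 and 0.28 (0.00439, 0.000994 and 0.0299).

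The assembly factors of the core were mixed. Psmg1 rose by 0.92, 0.99 and 0.72 (limma adjusted p = 0.00482, 0.00317 and 0.0205), and Psmg2 by 1.10 and 1.06 in the tumors (0.0221 and 0.0245). Psmg3 (0.02, 0.20 and 0.22) and Psmg4 (-0.14, -0.05 and 0.00) passed in none. Pomp, which helps build the beta ring, passed in wild-type tumors with a rise of 0.57 (0.0192) and was 0.27 and 0.20 higher in the other groups. Of the 3 immunoproteasome genes 1 fell in wild-type tumors, 0 in Dnmt3b-deficient tumors and 2 before tumors. Of the 14470 brighter probe sets 17.7%, 18.4% and 16.3% fell. Psmb9 read 8.64, 8.63 and 8.53 in normal thymocytes against 7.43, 7.79 and 7.89 in wild-type tumors, a fall of -0.89 (limma adjusted p = 0.00751), and fell by 0.72 on the log2 scale in pre-tumor thymocytes (0.0271). Its value in Dnmt3b-deficient tumors was -0.51 (0.0622). Psmb8 passed in pre-tumor thymocytes alone, at -0.79 (0.0414), and was -0.34 and -0.49 in the tumors. Psmb10 differed by -0.49, -0.05 and -0.08 and passed in none. The other genes that fell were Psme1, a subunit of an interferon-induced activator, by 0.62 on the log2 scale in wild-type tumors (0.0114), and Akirin2, an import factor of the proteasome, by 0.47, 0.64 and 0.37 (0.00482, 0.00128 and 0.0191). Beside these falls, 8 dendritic cell markers summed to 9.76 to 10.30 in normal thymocytes and 9.10 to 9.77 in wild-type tumors. The sums were 8.47 to 8.91 in Dnmt3b-deficient tumors and 8.77 to 9.13 in pre-tumor thymocytes. Of these 8 markers 0, 3 and 4 fell, beside 10.3%, 10.5% and 9.88% of all probe sets, and none was at the floor. The part of the dendritic cell markers in the falls of the proteasome genes was not tested.

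**Figure D5:**
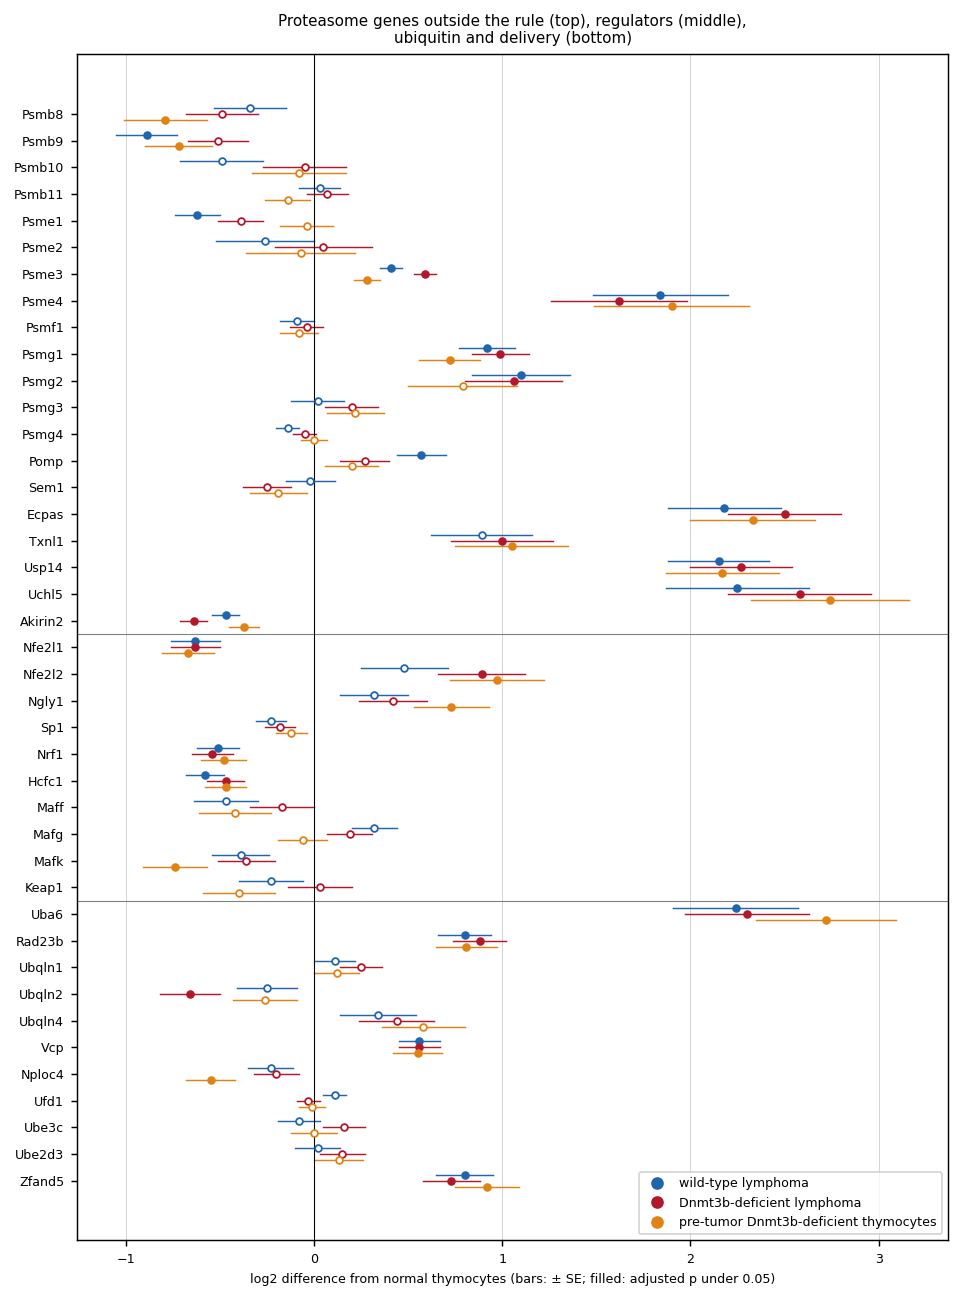
Log2 difference from normal thymocytes for 20 proteasome genes outside the rule, 10 regulators and 11 ubiquitin and delivery genes in wild-type tumors, Dnmt3b-deficient tumors and pre-tumor thymocytes; bars are SE and filled points passed limma. Uchl5, Usp14, Ecpas and Uba6 lie above 2 in all 3 groups, and Nfe2l1 below 0.

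Of 10 measured regulators of proteasome genes, 0, 1 and 2 rose and 3, 3 and 4 fell, with median differences of -0.31, -0.17 and -0.41. Beside this, 9.58%, 9.7% and 9.69% of all probe sets rose and 10.3%, 10.5% and 9.88% fell (17.7%, 18.4% and 16.3% of the brighter ones). Nfe2l1, the membrane-anchored factor that switches on subunit genes when the proteasome is inhibited, read 7.55, 7.62 and 7.62 in the normal samples, 6.71, 7.18 and 7.02 in wild-type tumors, 7.07, 6.76 and 7.07 in Dnmt3b-deficient tumors, and 6.93 and 6.91 in pre-tumor thymocytes. All 8 lay below the normal samples, at -0.63, -0.63 and -0.67 (limma adjusted p = 0.0127, 0.0118 and 0.0163). Nfe2l2, its relative in the oxidative stress response, was 0.48, 0.89 and 0.97 higher and passed in the latter pair (0.0295 and 0.0342). Hcfc1 and Nrf1 fell in all 3 comparisons by 0.47 to 0.58 on the log2 scale. Among 11 measured genes of ubiquitin supply and delivery, 4 rose in each comparison and 0, 1 and 1 fell, beside the same shares, with 18.5%, 18.7% and 18.2% of the brighter probe sets up. Uba6, a ubiquitin-activating enzyme, rose by 2.24, 2.30 and 2.72 (0.00367, 0.00286 and 0.00381), and the shuttle Rad23b, the unfoldase Vcp and Zfand5 by 0.55 to 0.92.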

How the data were processed

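RNA of 11 thymus samples (300 ng of total RNA each) was measured on 1 whole-transcript array per sample. The authors deposited 1 table of log2 values, made with Partek and RMA per the submitters' processing notes, which give no version. The sources used here give no genome build for these values, and promoter sequences come from a separate RefSeq table on GRCm38.p6. The lowest deposited value is 3.32, log2 of 10. Of 35512 probe sets, 6573 with the lowest IDs and no annotated gene were dropped. They were taken for controls from their IDs alone. The remaining 28939 were fitted in R 4.3.3 with limma 3.58.1 (functions lmFit, eBayes; 1 mean per group, 4 groups, 7 residual and 0.46 prior degrees of freedom), with no further normalization. A gene passed, and is said to have risen or fallen, where its p, adjusted over all 28939 after Benjamini and Hochberg, was under 0.05. All adjusted p-values and standard errors are limma's. Precision is limited by how many arrays there are. Differences are given in the order wild-type lymphoma, Dnmt3b-deficient lymphoma, pre-tumor thymocytes, each minus normal thymocytes, unless groups are named, and per-sample values in replicate order.

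Of the tested probe sets 21789 carry 1 gene symbol, 1621 several and 5529 none, and those with several were not named. Genes named with values are, for each comparison with normal, the 3 largest and 3 smallest differences in each particle. They also include the members that passed or else the 3 largest in size for the other comparisons, members with several probe sets, genes that are not subunits, and up to 5 genes of a list. Further members, the sequences and the motifs were chosen after their values were seen. The members and lists were chosen with earlier results of these data known. The labels call the samples biological replicates. Same-numbered samples did not deviate together (3 of 15 pairs with r over 0.1, from -0.331 to 0.322), so the numbers were not used as pairs. Alternatives were the normalization, the variance model, filters on low values, the samples in the fit, a fold threshold, the probe set and each sample left out. The fit was tested on simulated data.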

Additional observations from a re-analysis of the deposited data

How the results depend on the processing

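Of 4746 values of single members under the alternatives none changed sign while called, 178 lost and 75 gained a call, and 242 of 276 counts stayed within 1.5 times the reported one. In wild-type lymphomas against normal thymocytes, the 3 core calls became 5 after quantile normalization, after dropping probe sets that sit at the floor throughout, or with only these groups in the fit, and 6 without the dimmest probe sets; leaving out 1 sample gave 3 to 6 (6 without either pre-tumor sample). The 8 regulatory calls became 5 with a fold change of at least 2 or with the replicate block, and 5 to 11 on leaving out 1 sample (5 without replicate 1 or 2 of either group). In Dnmt3b-deficient lymphomas the 4 core calls became 2 to 6 and the 12 regulatory calls 6 to 13 on leaving out 1 sample (2 and 6 without normal replicate 2, 2 and 7 without tumor replicate 2, and 7 regulatory without normal replicate 1), and the latter 6 at a fold of at least 2. In pre-tumor thymocytes the 5 core calls became 3 with arrays centred on their medians, without moderation or at a fold of at least 2, 1 with the replicate block, 0 with only these groups in the fit, and 1 to 5 on leaving out 1 sample (1 to 3 without any normal sample, 3 without wild-type replicate 2 or 3, 2 without pre-tumor replicate 2). The 9 regulatory calls there became 3 with only these groups, 5 at a fold of at least 2, and 3 to 10 on leaving out 1 sample (3 without pre-tumor replicate 2). Tumors against pre-tumor thymocytes gave 0 to 1 core calls on leaving out 1 sample (Psmb4 without pre-tumor replicate 2, for either genotype). The replicate numbers do not pair the samples. Fitting 2 groups alone leaves fewer samples to estimate the spread; the cause of the other shifts was not tested. Taking the probe set on the gene's own chromosome, or the 31 standard subunits alone, both chosen after the data were seen, moved no count by over 1.5 times.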
